A study of Homo sapiens with 2 samples.

Results

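Levels of 10 long noncoding RNAs (lncRNAs) with known regulatory roles were described in human HEK293T cells recovering from heat shock. The RNAs were MALAT1, NEAT1, TUG1, NORAD, KCNQ1OT1, DANCR, PVT1, MEG3, H19 and MIAT. The rule took them by symbol and used no measured value, although it was set with earlier results of these data known. All 10 were found among the 57736 genes of the tables, NORAD under an identifier whose older symbol is LINC00657. The annotation lists 12805 lncRNA genes in these tables. TUG1 is not 1 of them, since the annotation used here labels it protein-coding.

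HEK293T is a wild-type human embryonic kidney line transformed with adenovirus DNA and expressing the SV40 large T antigen. By the labels, a heat shock of 20 min at 43 °C was followed by 6 h at 37 °C, whereas the study's text describes a longer heating for its experiment with a shorter recovery and gives no separate heating time for this one. Poly(A)+ RNA was then sequenced with 50 bp reads in 2 libraries, replicate 1 and replicate 2, made from cells lysed separately. Both libraries belong to 1 heat-shocked group of 1 cell line, untreated cells are not analysed here, and no change with heat shock was measured. Nothing in the labels says that the replicates came from separate cultures or days, so the spread between them may be technical. In the labels the molecule is given as genomic DNA, although their protocol describes poly(A)+ RNA.

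Long noncoding RNAs are transcribed and often spliced like mRNA but act as RNA. MALAT1 and NEAT1 stay in the nucleus, where MALAT1 collects in nuclear speckles with splicing factors and NEAT1 forms the core of paraspeckles. NORAD acts in the cytoplasm by holding Pumilio proteins, which repress mRNAs, whereas H19, KCNQ1OT1 and MEG3 are made from 1 parental allele of imprinted clusters. The others take part in chromatin regulation, growth control and splicing.

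The sequences below were chosen because they bear on how MALAT1 and NEAT1 end and on what NORAD binds. Each is printed 5′ to 3′ on the strand of the transcript, with T for U, from the GRCh37 genome. The mature ends of MALAT1 and of the long form of NEAT1 are known to be cut by RNase P and to end in a genomically encoded A-rich tract that folds into a triple helix, without a poly(A) tail. Capitals in both mark the 11 letters that they share. The MALAT1 stretch of 60 bases, chr11:65273548-65273607 on the plus strand, holds the window of 20 bases richest in A of its reference transcript, with 17 A. That window ends 1957 bases before the annotated end of the transcript.
MALAT1: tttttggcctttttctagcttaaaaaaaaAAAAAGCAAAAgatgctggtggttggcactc
The NEAT1 stretch of 60 bases, chr11:65212952-65213011 on the plus strand, is the end of its longest annotated transcript.
NEAT1: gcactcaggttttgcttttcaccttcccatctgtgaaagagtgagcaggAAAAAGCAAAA
The NORAD stretch of 150 bases, chr20:34637604-34637753 on the minus strand, is shown for its binding sites. Capitals mark its 2 matches to the Pumilio element TGTANATA, where N is any base.
NORAD: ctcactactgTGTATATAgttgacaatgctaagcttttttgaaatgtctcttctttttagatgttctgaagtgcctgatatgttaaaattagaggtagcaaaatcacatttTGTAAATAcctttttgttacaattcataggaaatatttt

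The libraries held 22529828 expected counts in replicate 1 and 26890199 in replicate 2, where an expected count is a read count in which reads matching several genes are shared among them. Where a gene had 0 counts, its true level may be as high as 3 counts, which corresponds to 0.133 CPM (counts scaled to the library total) in replicate 1 and 0.1116 CPM in replicate 2. These limits and the intervals given here cover counting error only. Of the neuronal markers known for HEK293T cells, the 4 found in the tables were all detected, with VIM at a TPM (transcript abundance per unit of length, as a part of a fixed total) of 684 and 611, UCHL1 at 397 and 367, and NEFM at 45.1 and 56.5. Of 8 kidney epithelium markers 3 were detected, the keratins KRT18 and KRT8 and the surface protein PODXL, while the tubule genes CDH16, UMOD and AQP2 had 0 counts in both libraries.

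Members were widely spread in level. Detection was set at a TPM of 1 or more in each library, which 7 of the 10 reached. The same threshold was reached by 1329 of the 12805 lncRNA genes (10.4%) and by 26.3% of all genes. MALAT1, DANCR, NORAD, TUG1 and NEAT1 had mean TPMs between 45.0 and 181, against a median of 3.06 over detected lncRNA genes and of 14.3 over all detected genes. PVT1 followed at 12.2 and H19 at 2.37. KCNQ1OT1 passed the threshold in replicate 2 alone, and MIAT and MEG3 lay below it in both libraries. In RNA from whole cultures, fewer expressing cells and less RNA per cell cannot be told apart. In the order of mean TPM, DANCR and NORAD overlapped in the range of their 2 libraries, as did NORAD and TUG1, and H19 and KCNQ1OT1. The other 6 pairs of neighbours did not overlap. Together the members held 0.0346% of all TPM in replicate 1 and 0.0543% in replicate 2, a mean of 0.0444% ± 0.014 (SD, n = 2). MALAT1 alone made up 29.7% of the members' TPM in replicate 1 and 47.8% in replicate 2.

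**Figure D1:**
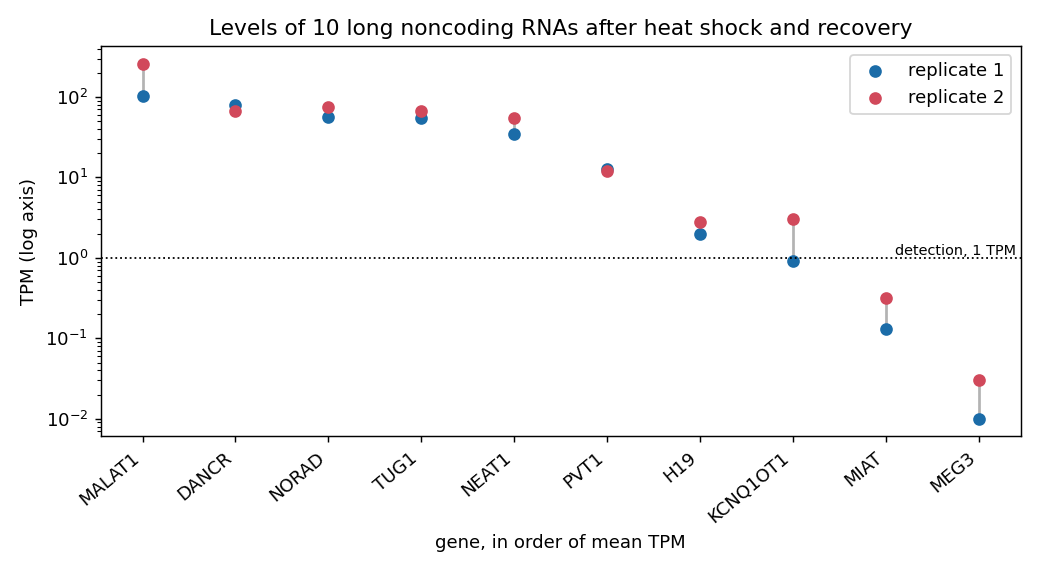
TPM of each of the 10 lncRNAs on a log axis, with 1 point for each library (replicate 1 and replicate 2), a grey line joining them and a dotted line at the detection threshold of 1 TPM. Levels run from above 100 for MALAT1 to at most 0.03 for MEG3, and the widest gaps between the libraries among detected genes are those of MALAT1 and NEAT1.

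The plot of levels shows that 8 of the 10 members were higher in replicate 2 by TPM, DANCR and PVT1 being the exceptions. Among the 8 are MEG3, with 1 and 2 counts, and MIAT and H19, which did not pass the test below. The share of all genes higher in replicate 2 by TPM is not given here. To ask which TPM gaps exceeded counting noise, the counts of each gene were compared between the libraries. Counts were scaled by TMM, a method that sets the bulk of genes equal. The comparison is of libraries, not of conditions. In an exact binomial test, two-sided and with Benjamini-Hochberg adjustment, 6 of the 9 members with enough counts passed the threshold of 0.05, beside 43.1% of the 19714 genes tested. Replicate 2 was higher for 5 of these (20.9% of all genes tested) and replicate 1 for the other (22.2%). A 2-fold excess in replicate 2 was found for 2 of them, MALAT1 and KCNQ1OT1, beside 4.64% of all genes. The median log2 ratio, replicate 2 over 1, was 0.32 over the 9 members, 0.15 over the 2810 lncRNA genes tested and 0.0011 over all genes tested. When a biological coefficient of variation of 0.1 was assumed in edgeR's exact test, this left 2 of the 6 calls, MALAT1 and KCNQ1OT1. Over all genes that test called 1427 of the 19714, and 92.4% of these calls were higher in replicate 2. The spread between the libraries over all genes was wider than assumed, at 0.200.

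**Figure D2:**
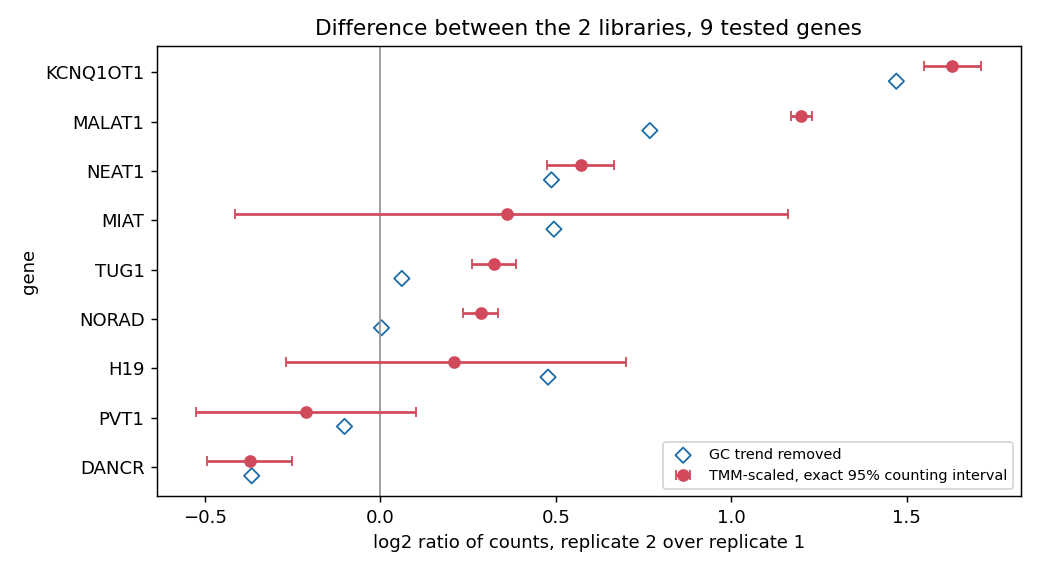
Log2 ratio of counts of replicate 2 over replicate 1 for the 9 tested lncRNAs, with circles for TMM-scaled values, bars for exact 95% counting intervals and open diamonds for values with the GC trend removed. KCNQ1OT1 at 1.63 and MALAT1 at 1.20 lie farthest to the right, DANCR at -0.37 lies to the left of 0, and the diamonds of NORAD and TUG1 fall close to 0.

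The libraries differed along the GC content of transcripts, and this moved with the members' ratios. The trend, taken as medians over classes of genes whose counts summed to 100 or more, was positive for AU-rich transcripts and negative for GC-rich ones. The GC content of a gene was taken over all its transcripts in the tables, weighted by length, so it can differ from that of 1 reference transcript, as for MALAT1 with 40.1% against 42.0% and DANCR with 47.0% against 43.9%. How far the choice of transcripts moved the correction was not tested. At the GC content of MALAT1, 40.1%, the trend alone was 0.43 on the log2 scale, and at that of H19, 62.8%, it was -0.27. With the trend removed, 4 of the 9 members still passed the exact binomial test after Benjamini-Hochberg adjustment, beside 26.7% of all genes. These were MALAT1, NEAT1, KCNQ1OT1 and DANCR, and the calls of NORAD and TUG1 were lost. The median log2 ratio of the 9 members was then 0.48.

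**Figure D3:**
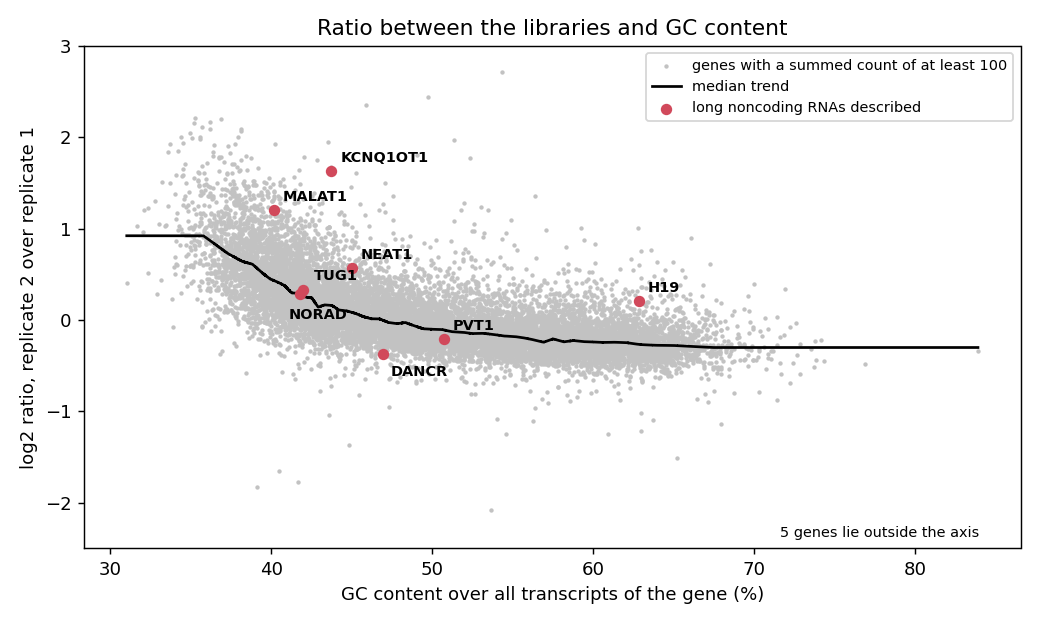
Log2 ratio of replicate 2 over replicate 1 against GC content in percent over all transcripts of a gene in the tables, with grey points for genes of 100 or more summed counts, a black line for the median trend and red points for the 8 lncRNAs with enough counts; 5 genes lie outside the axis. NORAD and TUG1 sit on the trend, KCNQ1OT1, MALAT1, NEAT1 and H19 above it, and DANCR and PVT1 below it.

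MALAT1 (ENSG00000251562, chr11:65265111-65275544, plus strand) was the highest member. Its TPM was 102.58 in replicate 1 and 259.75 in replicate 2, from 11180 and 31703 expected counts, a mean of 181 ± 111 (SD, n = 2). Replicate 2 was therefore higher by a log2 ratio of 1.20 in scaled counts (95% interval 1.17 to 1.23), with an adjusted p too small to be represented in the exact binomial test with Benjamini-Hochberg adjustment. It ranked 9th among lncRNA genes by TPM, 714th among all genes by TPM and 99th by counts. After removal of the GC trend the log2 ratio was 0.77. Among 704 genes with a GC content within 1 percentage point and at least 1000 summed counts, its ratio ranked 25th, where the median was 0.42 and the 5th to 95th percentiles ran from -0.03 to 1.13. The weighted transcript length that the quantifier gave, 6024 and 5928 bases, hardly moved between the libraries. A gene on the opposite strand of the same interval, ENSG00000270117, had 0 counts in both.

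The lncRNA genes most like MALAT1, by distance on the log2(TPM + 1) scale over the 2 libraries, were GAS5, a host of snoRNAs, at TPMs of 164 and 222 and SNHG6, another snoRNA host, at 157 and 176. Both lay at some distance, 0.71 and 0.83. The protein-coding neighbours LTBP3, FRMD8 and EHBP1L1 were detected, and none of them passed the test with replicate 2 higher. LTBP3, a binding protein of latent TGF-beta, had TPMs of 42.1 and 42.5 and by the test above was higher in replicate 1 in scaled counts, with a log2 ratio of -0.21, a direction that turned to 0.073 without the GC trend. FRMD8 had TPMs of 10.2 and 8.92 and EHBP1L1 5.95 and 6.01, and neither passed the test.

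Nuclear speckle proteins were all detected, at mean TPMs between 145 and 613. Of the 10, 6 were higher in replicate 2 and 2 in replicate 1, with a median log2 ratio of 0.059, beside 43.1% of all genes called and a median of 0.0011. These genes have high counts, for which the share over all genes was not matched. SRRM2, the large scaffold of speckles, had TPMs of 569 and 656. SRRM1, a splicing coactivator, had 358 and 384, and SRSF2, a serine/arginine-rich splicing factor, had 349 and 338. SON, the other scaffold, was the lowest by mean TPM, at 140 and 151. PNN, singled out after its values were seen, came closest to the pattern of MALAT1, with TPMs of 133 and 275 and a log2 ratio of 0.88 (0.60 without the GC trend).

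NEAT1 (ENSG00000245532, chr11:65190245-65213011, plus strand) lies upstream of MALAT1 on the same strand. Its TPM was 35.12 in replicate 1 and 54.96 in replicate 2, from 1388 and 2545 expected counts, a mean of 45.0 ± 14.0 (SD, n = 2), which placed it 32nd among lncRNA genes. Replicate 2 was higher by a log2 ratio of 0.57 (95% interval 0.48 to 0.67), with an adjusted p of 4.35e-32 in the exact binomial test with Benjamini-Hochberg adjustment. Without the GC trend the log2 ratio was 0.49 and the adjusted p 4.03e-23. Among 669 genes of like GC content it ranked 15th, where the 95th percentile was 0.49. When a biological coefficient of variation of 0.1 was assumed, the adjusted p from edgeR's exact test was 0.079. The difference thus passed the test against counting noise and missed that against a wider spread.

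The long form of NEAT1 is the one needed to build paraspeckles, whereas the short form is polyadenylated. The weighted length of NEAT1 transcripts was 2215 bases in replicate 1 and 2279 in replicate 2. Since the long transcript has 22743 bases in the reference, it can have been at most 9.74% of the NEAT1 transcripts estimated in replicate 1 and at most 10.0% in replicate 2. These are shares of what poly(A) selection captured. How far the selection set the level of either form, or that of MALAT1, was not tested.

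Paraspeckle proteins were all detected. Of the 12, 4 were higher in replicate 2 and 7 in replicate 1 by the same test, beside 43.1% of all genes called, with a median log2 ratio of -0.083. Here too the share over all genes was not matched for the high counts of the list. Removal of the GC trend left 6 of the 12 called, beside 26.7% of all genes, and the median was -0.082. NONO, an RNA-binding protein that coats NEAT1, was the highest at TPMs of 1987 and 1810. HNRNPK, another RNA-binding protein of paraspeckles, had 711 and 712, and RBM14 was the lowest at 59.5 and 54.6. NONO, HNRNPK and RBM14 were all higher in replicate 1 in scaled counts, by log2 ratios of -0.21, -0.12 and -0.26. Without the GC trend these ratios were -0.15, -0.36 and -0.049. The 4 that were higher in replicate 2 were HNRNPH3, CPSF6, NUDT21 and TARDBP.

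Factors that make or modify the ends of MALAT1 and NEAT1 were detected in 13 of 13 cases. They included the subunits of RNase P, the tRNA nuclease ELAC2, the CCA-adding enzyme TRNT1 and the methyltransferase METTL16, which binds the MALAT1 triple helix. Of these, 1 was higher in replicate 2 and 5 in replicate 1, a share near the 43.1% of all genes called, with a median log2 ratio of -0.069. After removal of the GC trend 4 of the 13 were called, beside 26.7% of all genes. ELAC2 was the highest at TPMs of 181 and 146, followed by the RNase P subunits POP7 at 96.4 and 84.7 and POP4 at 52.6 and 46.3. RPP40 was the lowest at 6.83 and 7.31.

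NORAD (ENSG00000260032, chr20:34633540-34638940, minus strand) was the third member by mean level. Its TPM was 56.85 in replicate 1 and 75.15 in replicate 2, from 5486 and 8254 expected counts, a mean of 66.0 ± 12.9 (SD, n = 2). Replicate 2 was higher by a log2 ratio of 0.29 (95% interval 0.24 to 0.34), with an adjusted p of 5.92e-29 in the exact binomial test with Benjamini-Hochberg adjustment. This single-exon RNA has a GC content of 41.8%, where the trend between the libraries was 0.28. With the trend removed the log2 ratio was 0.0030 and the adjusted p 0.98. Its closest lncRNA genes in level were ZFAS1, a snoRNA host, at TPMs of 55.4 and 71.0 and HOTAIRM1 at 63.2 and 71.3, with distances of 0.089 and 0.17.

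The sequence of NORAD was unusual for its Pumilio elements. The reference transcript of 5401 bases held 15 matches to TGTANATA on the transcript strand, or 2.78 per kb. Of these, 10 were TGTATATA, 4 were TGTAAATA and 1 was TGTACATA. Any match was found in 18.2% of the 4398 reference lncRNA transcripts of at least 1000 bases, but only 3 of them, NORAD included, were as dense (0.068%). NEAT1 held 6, KCNQ1OT1 9, TUG1 2 and MEG3 1, all at lower density, and the other 5 members held none. A match is a run of letters and not a measured binding site.

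Proteins known to bind NORAD were detected. RBMX, an RNA-binding protein of the DNA damage response, had TPMs of 768 and 754, and KHDRBS1, which encodes SAM68, had 194 and 202. PUM2, a Pumilio protein, was lower in level, at 19.9 and 30.9, and higher in replicate 2 by a log2 ratio of 0.52 (0.16 without the GC trend). RBMX was higher in replicate 1 in scaled counts, by a log2 ratio of -0.12 (-0.29 without the GC trend). KHDRBS1 was also higher there, by -0.062, but its direction turned to 0.014 without the trend.

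TUG1 (ENSG00000253352, chr22:31365231-31375381, plus strand) is a widely expressed RNA found in the nucleus and the cytoplasm. Its TPM was 55.04 in replicate 1 and 67.67 in replicate 2, from 3370 and 5207 expected counts, a mean of 61.4 ± 8.93 (SD, n = 2). Replicate 2 was higher by a log2 ratio of 0.32 (95% interval 0.26 to 0.39), with an adjusted p of 2.29e-23 in the exact binomial test with Benjamini-Hochberg adjustment. Without the GC trend the log2 ratio was 0.061 and the adjusted p 0.156. The estimated isoform mix moved, since the weighted length of its transcripts was 3406 bases in replicate 1 and 3755 in replicate 2, or 10.2% longer. The lncRNA ENSG00000269972, on the opposite strand within the same interval, had 79.5 and 137 counts and TPMs of 20.2 and 30.6. The counting options in the study's methods name no strand setting, the setting behind these tables is not stated in the sources used here, and without strand the reads of such a pair cannot be told apart. MORC2, the neighbouring gene for a chromatin ATPase, had TPMs of 21.7 and 22.1, and its antisense partner MORC2-AS1 was listed at 0.41 and 0.22.

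DANCR (ENSG00000226950, chr4:53578492-53589790, plus strand), a snoRNA host that is known for holding back differentiation, was the second member by mean level. Its TPM was 80.56 in replicate 1 and 67.51 in replicate 2, from 1129 and 1076 expected counts, a mean of 74.0 ± 9.23 (SD, n = 2). It was the only member that passed the test with replicate 1 higher. The log2 ratio was -0.37 (95% interval -0.49 to -0.25), with an adjusted p of 8.44e-09 in the exact binomial test with Benjamini-Hochberg adjustment. Its GC content of 47.0% lies where the trend was close to 0, and without the trend the ratio was also -0.37, with an adjusted p of 3.61e-08. Its weighted length, 817 and 816 bases, differed by less than 0.1%. The lncRNA genes closest to it were ATP2A1-AS1, at TPMs of 79.5 and 62.1 and a distance of 0.12, and SNHG32, at 79.3 and 76.2 and a distance of 0.17. The snoRNA SNORA26 within DANCR had 4 counts in replicate 1 and 0 in replicate 2, and the miRNA gene MIR4449 had 0 in both.

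PVT1 (ENSG00000249859, chr8:128806772-129199347, plus strand) neighbours MYC and is often gained together with it in tumours. Its TPM was 12.59 in replicate 1 and 11.90 in replicate 2, from 167 and 178 expected counts, a mean of 12.2 ± 0.49 (SD, n = 2). The log2 ratio was -0.21 (95% interval -0.52 to 0.10), with an adjusted p of 0.295 in the exact binomial test with Benjamini-Hochberg adjustment. A difference of this size was not detectable at this depth. MYC had TPMs of 277 and 263. The miRNA genes MIR1205, MIR1207 and MIR1208 within PVT1 had 0 counts in both libraries.

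MIAT (ENSG00000225783, chr22:27042375-27072438, plus strand), known from neural and cardiac tissue as a nuclear RNA that binds splicing factors, was below the TPM threshold of detection in both libraries. Its TPM was 0.13 in replicate 1 and 0.32 in replicate 2, from 24.2 and 38.5 expected counts. The log2 ratio in scaled counts was 0.36 (95% interval -0.42 to 1.16), with an adjusted p of 0.526 in the exact binomial test with Benjamini-Hochberg adjustment. The ratio of its TPMs was larger, with replicate 2 at 2.46 times replicate 1. TPM is scaled to length, and the weighted length of MIAT was 10142 bases in replicate 1 and 5928 in replicate 2. MIATNB, its neighbour on the same strand with which it overlaps, had 31.8 and 52.5 counts and TPMs of 2.65 and 3.81. The values of MIATNB were above those of MIAT in both libraries, on both scales, but no test between the 2 genes was run. Reads in their overlap are shared by the quantifier. The posterior mean TPM of MIAT, 1.77 in both libraries, lay far above its TPM, and the part of shared reads in this gap was not tested.

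KCNQ1OT1 (ENSG00000269821, chr11:2618538-2721233, minus strand) is an unspliced RNA read from within KCNQ1 in the opposite direction, and on the paternal allele it silences nearby genes. Its TPM was 0.91 in replicate 1 and 3.04 in replicate 2, a mean of 1.98 ± 1.51 (SD, n = 2). The tables give it a single transcript of 91667 bases, so that a low TPM stood on many reads, 1515 and 5787 expected counts, or 16.5 and 63.1 counts per kb. By summed counts it was the 4th member and by TPM the 8th. Replicate 2 was higher by a log2 ratio of 1.63 (95% interval 1.55 to 1.71), with an adjusted p too small to be represented in the exact binomial test with Benjamini-Hochberg adjustment. Without the GC trend the log2 ratio was 1.47. Among 739 genes of like GC content and at least 1000 summed counts its ratio ranked 1st, where the 5th to 95th percentiles ran from -0.24 to 0.52, and among all 7974 genes with such counts it ranked 28th. This was the largest ratio of the 9 tested members both with and without the GC trend.

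KCNQ1, the potassium channel gene whose introns share the interval of KCNQ1OT1, went the other way. It had 141 counts in replicate 1 and 113 in replicate 2, at TPMs of 3.41 and 2.20. The log2 ratio was -0.62, with an adjusted p of 0.0021 in the exact binomial test with Benjamini-Hochberg adjustment. Without the GC trend the ratio was -0.36. Since strand use is not given, unspliced reads of KCNQ1 cannot be told apart from KCNQ1OT1. Whether unspliced or nuclear RNA differed between the libraries was not tested.

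None of the other genes of the cluster that were looked at passed the test with replicate 2 higher. CDKN1C, an inhibitor of cyclin-dependent kinases that is expressed from the maternal allele, had TPMs of 3.38 and 3.64 and did not pass the test. PHLDA2, a growth inhibitor of placenta, had 27.0 and 24.0, and the transporter SLC22A18 had 4.09 and 3.55. TSSC4, a splicing factor of U5 snRNP assembly, had 12.3 and 10.6, and the tetraspanin CD81 had 118 and 98.3. PHLDA2, SLC22A18, TSSC4 and CD81 were all higher in replicate 1 in scaled counts, by log2 ratios of -0.29, -0.49, -0.35 and -0.37. Most of each difference was gone without the GC trend, where the ratios were -0.022, -0.21, -0.066 and -0.13.

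H19 (ENSG00000130600, chr11:2016396-2025782, minus strand) is a maternally expressed RNA that is abundant in fetal tissue and hosts a miRNA. Its TPM was 1.96 in replicate 1 and 2.77 in replicate 2, from 63 and 90 expected counts, a mean of 2.37 ± 0.57 (SD, n = 2). The log2 ratio was 0.21 (95% interval -0.27 to 0.70), with an adjusted p of 0.569 in the exact binomial test with Benjamini-Hochberg adjustment, and 0.48 with an adjusted p of 0.128 without the GC trend. IGF2, the growth factor gene that shares its enhancers and is expressed from the paternal allele, had TPMs of 16.8 and 21.8 and was higher in replicate 2 by a log2 ratio of 0.27, with an adjusted p of 1.36e-07. IGF2 thus exceeded H19 in both libraries. MRPL23, a mitochondrial ribosomal protein gene beside H19, had 97.5 and 72.2 and was higher in replicate 1 by a log2 ratio of -0.54 (-0.27 without the GC trend). INS, the insulin gene, had 0 counts in both.

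MEG3 (ENSG00000214548, chr14:101245747-101327368, plus strand), a maternally expressed RNA with growth-restraining activity, was barely present. It had 1 expected count in replicate 1 and 2 in replicate 2, at TPMs of 0.01 and 0.03, which is within the limit that a count of 0 allows. No ratio between the libraries was drawn from it. The other genes of its imprinted cluster, DLK1, RTL1, MEG8 and MEG9, and the miRNA gene MIR770 within it, all had 0 counts in both libraries. DLK1 is a Notch-related ligand and RTL1 a retrotransposon-derived gene, both of the paternal allele.

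**Figure D4:**
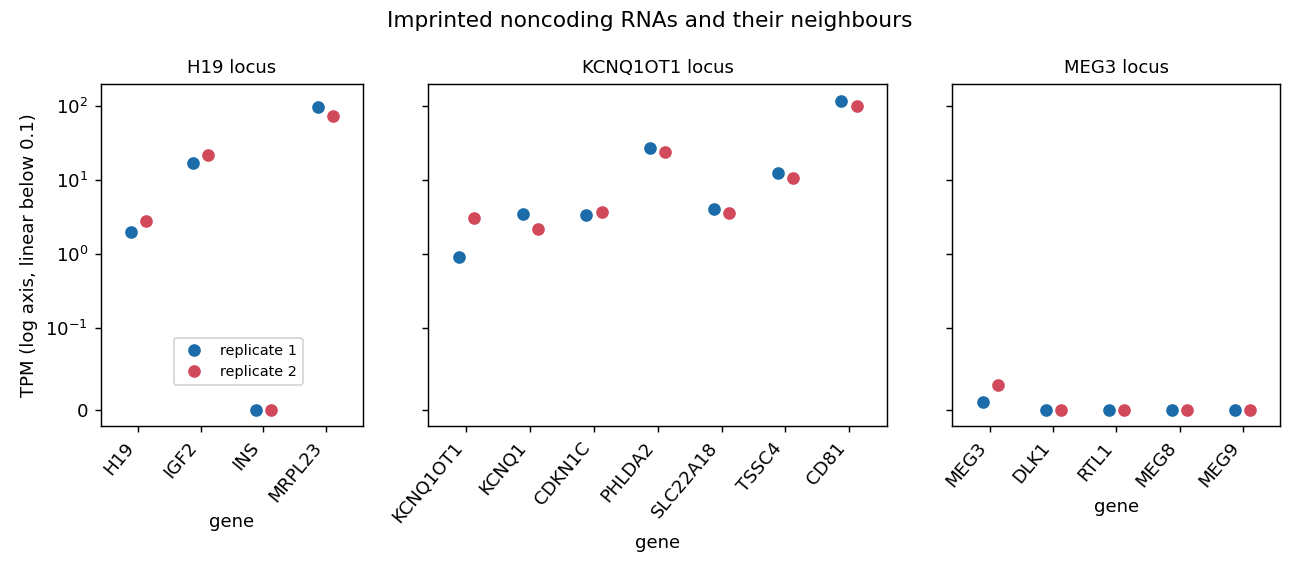
TPM of H19, KCNQ1OT1 and MEG3 and of their neighbours at each imprinted locus, with 1 point for each library on an axis that is logarithmic above 0.1 and linear below. KCNQ1OT1 and IGF2 are higher in replicate 2 and KCNQ1, MRPL23 and CD81 in replicate 1, while the genes of the MEG3 locus lie at or near 0.

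Over all 20 genes listed as imprinted or neighbouring, 14 were detected and 14 had enough counts for the test. Of these, 1 was higher in replicate 2, IGF2, and 9 in replicate 1, beside 43.1% of all genes called, with a median log2 ratio of -0.26. Removing the GC trend left 4 of the 14 called, beside 26.7% of all genes, and brought that median to -0.013. The plot of the 3 imprinted loci sets H19, with IGF2 above it, and KCNQ1OT1, with every protein-coding neighbour shown detected, beside a MEG3 locus that was at or near 0 counts.

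KCNQ1OT1, MEG3 and other lncRNAs are known to contact Polycomb repressive complex 2, which methylates histone H3, although how specific such contacts are is debated. All 8 genes of the complex that were looked at were detected. RBBP7 and RBBP4, histone-binding subunits shared with other complexes, had TPMs of 367 and 369 and of 168 and 172. EZH2, the main methyltransferase, had 103 and 109, and EED was the lowest at 10.3 and 12.1. Of the 8, 3 were higher in replicate 2 and 1 in replicate 1, a share near the 43.1% of all genes called, with a median log2 ratio of 0.070. After removal of the GC trend 6 were called, beside 26.7% of all genes, and the median was -0.012. SUZ12, singled out after its values were seen, had the largest ratio of the complex, with TPMs of 12.9 and 26.9 and a log2 ratio of 0.95 (0.30 without the GC trend).

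Other regulatory lncRNAs were compared as a group. Of the 16 in the list, 13 were detected and 14 could be tested. By the exact binomial test with Benjamini-Hochberg adjustment, 8 were higher in replicate 2 and 1 in replicate 1, beside 43.1% of all genes called, with a median log2 ratio of 0.32. Without the GC trend 5 of the 14 were called, beside 26.7% of all genes, and the median was 0.18. The highest were GAS5, at TPMs of 164 and 222, BCYRN1, which derives from an Alu-like sequence and may share reads with such repeats, at 93.9 and 79.3, and HOTAIRM1 at 63.2 and 71.3. The length given for BCYRN1 was 13458 bases in both libraries, and its TPM is that of this long entry. UCA1 was the lowest, at 0 and 0.02. For comparison, of the 2810 lncRNA genes tested 15.1% were called, 310 of them higher in replicate 2 and 114 higher in replicate 1. These groups were not matched for depth.

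The deposited tables also hold a posterior mean TPM with credibility bounds, which describe uncertainty within a library and not the spread between libraries. The bounds cover more than the assignment of reads. For MEG3 the posterior SD of the count was 0 in both libraries, and its bounds were still wide. The TPM lay inside its own bounds in both libraries for 3 members, DANCR, TUG1 and NEAT1. It lay outside in both for 5, MALAT1, NORAD, PVT1, MIAT and MEG3. For MALAT1 the gap was small, with a posterior mean of 99.4 in replicate 1 and 252.6 in replicate 2. For low members the posterior mean was far above the TPM. MEG3 had posterior means of 3.49 and 3.10, with bounds from 0.822 to 7.96 and from 0.75 to 7.09, and MIAT had 1.77 in both. PVT1 had 18.8 and 17.0 and H19 3.89 and 4.27. MEG3 has 28 transcripts in the tables, MIAT and PVT1 21 each and H19 14, against 1 for NORAD and KCNQ1OT1, for which the posterior mean divided by the TPM was 0.97 in replicate 1. The part of the number of transcripts in these gaps was not tested. Bounds of the 2 libraries overlapped for PVT1, H19, MIAT and MEG3, the 4 members without a call, and did not overlap for the 6 with a call.

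**Figure D5:**
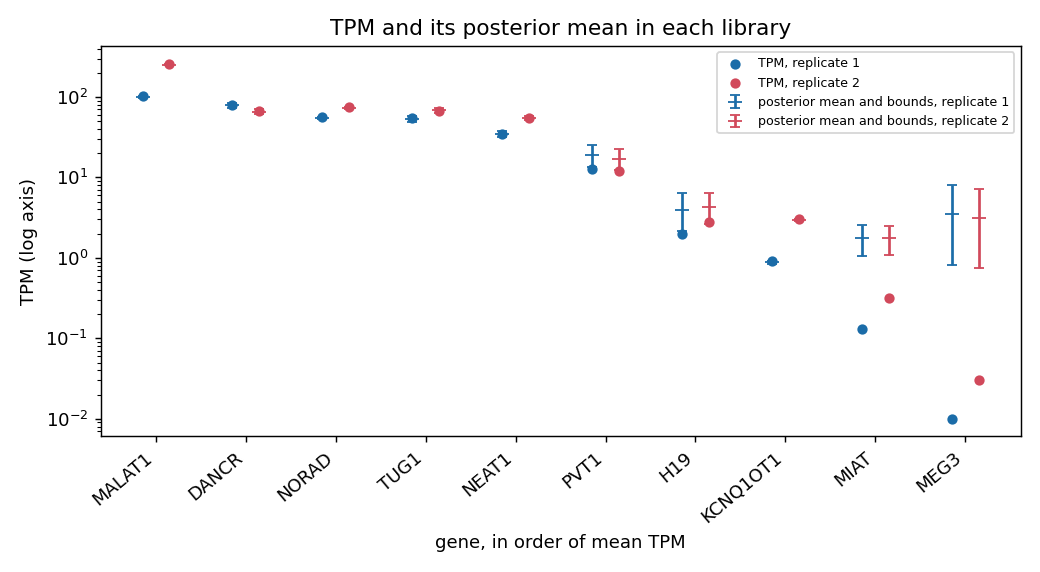
TPM (dots) with its posterior mean and credibility bounds (bars) for each lncRNA in replicate 1 and replicate 2, on a log axis. Dots and bars nearly coincide for MALAT1, DANCR, NORAD, TUG1, NEAT1 and KCNQ1OT1, whereas for MIAT and MEG3 the dots lie far below bars that span a posterior mean of at least 1.77.

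Promoters of the members were searched for paired heat shock element units, written GAANNTTC and TTCNNGAA, in RefSeq windows of 300 bases on GRCh38.p14, on both strands, since both patterns read the same on either strand. Windows were found for 7 of the 10 members, MALAT1, DANCR, NORAD, TUG1, H19, MIAT and MEG3. MALAT1 had 2 windows, MEG3 had 3 and the others 1 each. A match was found for 1 of the 7, MIAT, beside 13.5% of the 35116 windows searched, which is a share of windows and not of genes. MIAT was 1 of the 3 members below the detection threshold. A match is a description of these letters, and a window without one says nothing of the heat shock factor.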

How the data were processed

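Poly(A)+ RNA of 2 replicates of heat-shocked HEK293T cells was sequenced, and samples were grouped by their labels into 1 group. The submitters' processing notes name Trimmomatic 0.36, STAR 2.6.1c and RSEM 1.3.1, with the build GRCh37. The methods of the study name featureCounts, but the deposited tables carry the columns of RSEM. Expected counts deposited by the authors share reads that match several genes. TPM and FPKM values, scaled by the authors to effective length, were used as deposited, as were the weighted lengths and the score columns (posterior means, their bounds and posterior SDs) deposited by the authors. Sharing of reads can move counts between similar or overlapping genes, and neither source says whether strand was used. A pooled table of the series was not used here.

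Positions, biotypes and GC content came from GENCODE v44 lifted to GRCh37, which gave 96.1% of the genes a symbol and 97.1% a GC value, and promoter sequences from RefSeq. Expected counts were rounded, and each gene with a summed count of at least 10 was tested by an exact two-sided binomial test (SciPy 1.17.1) conditional on that sum, with TMM library sizes (edgeR 4.0.16) and Benjamini-Hochberg adjustment. With 1 library on each side, this measures departure from counting noise only. Log2 ratios used a pseudocount of 0.5, and intervals are exact Clopper-Pearson at 95%. The GC trend was the median in 50 classes, interpolated linearly. Statistics were tested on simulated data that held counting noise only, so the test does not cover the wider spread between these libraries.

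The members, gene lists and tests were chosen with earlier results of these data known. By rule, all members were named, and from each list the 3 highest genes, the lowest, and those at 0 in both libraries, with every gene of the lists of imprinted or neighbouring genes and hosted small RNAs. Of 9 hosted small RNAs 5 were matched by symbol in the tables, and MIR675, MIR1204 and MIR1206 are not analysed here. Some genes that the rule would name are not reported here. Alternatives covered detection thresholds, units, count minimums, scaling by totals or DESeq2 1.42.0 size factors, pseudocounts, the GC trend and edgeR's exact test, for which a biological coefficient of variation of 0.1 was assumed.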

Additional observations from a re-analysis of the deposited data

How the results depend on the processing

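Of 45 alternatives to the log2 ratios of the 9 tested members, 45 kept the direction. Many could not have turned it. Library totals and DESeq2 size factors shift all genes alike, by 0.048 and 0.0097, against a smallest member ratio of 0.21 for H19. A larger pseudocount only draws ratios towards no difference. Of the 27 in which the binomial test was run again, 25 kept the side of the threshold and 2 lost the call, NORAD (log2 ratio 0.0030) and TUG1 (0.061) with the GC trend removed. Reruns by edgeR's exact test are not among the 27. The number of members differing between the libraries was 6 with library totals, with DESeq2 size factors and with other count minimums, 4 with the GC trend removed and 2 in edgeR's exact test, where a biological coefficient of variation of 0.1 was assumed. The spread between the libraries over all genes was wider than assumed there, at 0.200. Over all genes that test gave 1427 calls and the removal of the GC trend 5138, against 8492, and 92.4%, 50.3% and 48.5% of these calls were higher in replicate 2. Library totals moved that share to 56.5% and the median log2 ratio of all tested genes by 0.048. The members' share of the library was 0.156% by expected counts and 0.0263% without MALAT1, and it ran from 0.0346% to 0.0543% with either library left out. Ordered by mean CPM, which is not scaled to length, 6 of the 10 members changed rank, and by FPKM none did. Detected members numbered 9 at a TPM of at least 0.1, 6 at a TPM of at least 5, and 7 and 8 with a library left out. They numbered 7 at an FPKM of at least 1 and 9 at a CPM of at least 1, where only MEG3 failed. At a posterior mean TPM of at least 1 they also numbered 9, and only KCNQ1OT1 failed. MIAT passed by CPM and by posterior mean, so which members counted as detected depended on the measure.

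No paired analysis was possible because both libraries belong to 1 group, and leaving out a library ends the comparison of libraries. Depth limits PVT1, H19, MIAT and MEG3, which had 3 to 345 summed counts. Condition effects, strand and the capture of RNAs without a poly(A) tail were not tested.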
